A study of Mus musculus with 6 samples.

Results

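Chemokines are small secreted proteins that bind G protein-coupled receptors on leukocytes and other cells and direct their movement. The families are named for the spacing of their first cysteines (CC, CXC, XC and CX3C), and a receptor often binds several ligands of its own family. In the testis, chemokines are known for the recruitment and upkeep of the macrophages and few lymphocytes of the interstitium, and the pair Cxcl12 and Cxcr4 is known for its role in germ cell migration and in the spermatogonial stem cell niche.

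The members were all array probes outside the controls whose gene name starts with Ccl, Ccr, Cxcl, Cxcr, Xcl, Xcr or Cx3cl followed by a number, which gave 54 of the 27611 gene names on the array, measured by 69 of its 41174 probes. Total RNA of whole testes from 3 Prss37 knockout (KO) and 3 wild-type (WT) male mice had been labelled with Cy3 and hybridised to 6 single-colour Agilent arrays. All mice were on a C57BL/6 background and between 6 and 8 weeks of age. Prss37 encodes a serine protease-like protein of the trypsin family made in the testis. In the labels of the KO mice, title and source read Prss37 but the description reads Prss55, and mice were grouped by title. Each array was taken as 1 mouse, as the design text counts mice. The labels do not give the deleted part of Prss37. The name rule leaves out Cx3cr1, Ackr1, Ackr2, Ackr4, Ccrl2, Pf4 and Ppbp, and takes in Cxcr7, now named Ackr3.

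Between 69.2% and 71.4% of the spots of an array were well above background, and no spot was saturated. Signals are given scaled, which sets the 75th percentile of every array to 1617. They compare arrays for 1 probe and not 1 probe with another. The first principal component (38.65% of the variance) separated the genotypes and the second (22.83%) separated the slides, slide 1 holding replicates 1 and 2 and slide 2 replicate 3 of each genotype. The probe for Prss37 was detected on all 6 arrays, with scaled signals of 67592, 73824 and 71562 in KO testes and 116135, 107860 and 124390 in WT testes (log2 difference -0.71, SE 0.07, limma adjusted p = 0.030). Whether it lies in the deleted part is unknown, so it may check nothing. All markers of germ, Sertoli, Leydig and peritubular cells measured were well above background on at least 1 array. Of the 5 epididymis genes, Adam7, Crisp1, Lcn5 and Lcn8 were so on none. The remaining epididymis gene, Defb41, was detected and tested, with scaled signals of 311 to 324 in KO testes and 356 to 381 in WT testes (log2 difference -0.20).

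Ccr7 and Ccr4 were the members that passed the test, and the probe sequences below are those their values rest on. For Ccr7 the first 30 bases of the probe are given. The files place the probe at chr11:99005513-99005538 of mm9 on the minus strand, which covers 26 of its 60 bases. For Ccr4 the capitals mark the 30 bases that its probes A_51_P444473 (chr9:114400791-114400850 of mm9, minus strand) and A_51_P444476 (chr9:114400761-114400820) have in common. The probes share 30 of their 60 bases, so they read overlapping stretches of the transcript. The files do not say whether these stretches are coding.

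Ccr7 probe, first bases: cttctagcttagagagatgtcccggagatt

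Ccr4 shared stretch: CTTGAGTGGATCTCTAGTTTGGTTGAACTA

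Of the 69 member probes, 37 probes of 30 genes were well above background on all 6 arrays, 9 on some arrays and 23 on none. A probe was tested where it was well above background on every array of at least 1 genotype, and the 37 probes tested were exactly those detected on all 6 arrays. That is 53.62% of the member probes, against 68.75% of all probes on the array. At least 1 probe of 37 genes was detected on some array, and 17 genes were detected on none.

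Of the 20 CC chemokine genes 15 were tested, among them the ligands of lymphoid tissue Ccl19, Ccl21a, Ccl25, Ccl27a and Ccl28 and the monocyte attractants Ccl2, Ccl8 and Ccl12. The CXC, XC and CX3C chemokines had 6 of 15 genes tested: Cxcl9, Cxcl12, Cxcl14, Cxcl16, Xcl1 and Cx3cl1. None of the 6 probes for the neutrophil attractants Cxcl1, Cxcl2, Cxcl3, Cxcl5 and Cxcl15 was tested. Of the interferon-inducible ligands of Cxcr3, Cxcl9 was detected on all arrays, while Cxcl10 and Cxcl11 were well above background on none.

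Of the 11 CC receptor genes 4 were tested, namely Ccr4, Ccr6, Ccr7 and Ccr9, and of the 8 CXC and XC receptor genes 5 were, namely Cxcr3, Cxcr5, Cxcr6, Ackr3 and Xcr1. Ccr1, Ccr1l1, Ccr3, Ccr8, Ccr10, Cxcr1 and Cxcr2 were well above background on no array. Several receptors and ligands were thus detected without their partner. Ccl25 and its receptor Ccr9, Cxcl16 and Cxcr6, and Xcl1 and Xcr1 were each detected on all 6 arrays, whereas Ccl1 was detected without its receptor Ccr8, Ccl27a and Ccl28 without Ccr10, and Ccr6 without its ligand Ccl20. Detection of Xcr1 rested on probe A_51_P345805, while its probe A_52_P490159 was well above background on no array. A probe that is not well above background may still have a transcript below its limit.

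**Figure D1:**
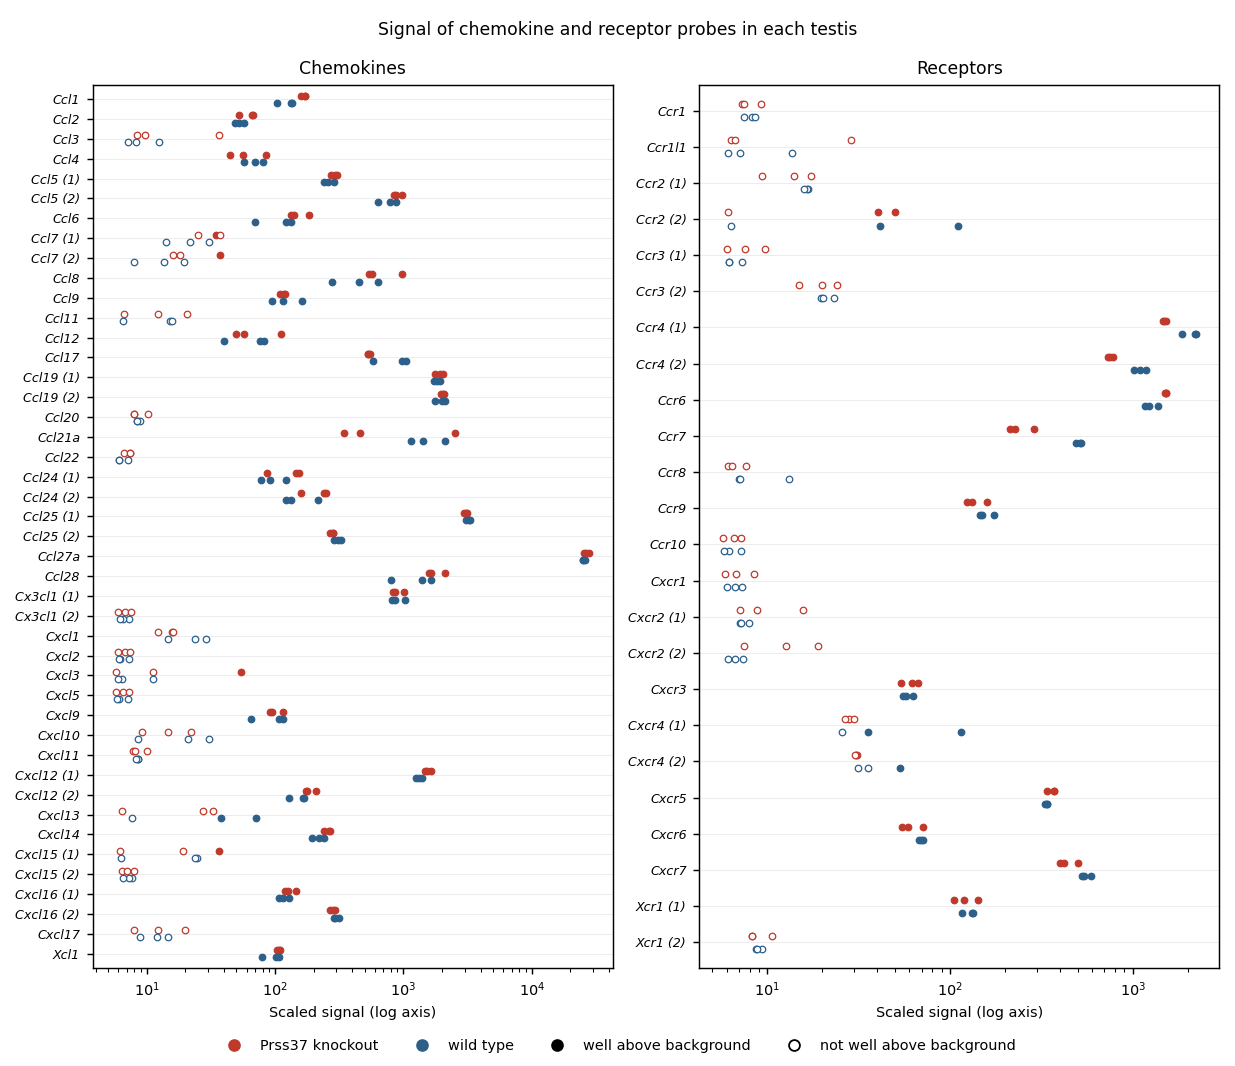
Scaled signal (log axis) of 68 chemokine and receptor probes in each testis, knockout points above wild-type points in each row; filled points are well above background and open points are not, and numbers in brackets tell probes of 1 gene apart. The 37 tested rows are filled on all 6 arrays, and the rows of Cxcl2, Cxcl5, Cxcl10, Cxcl11 and Ccr10 hold open points alone.

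The receptors Ccr7 and Ccr4 fell in KO testes, and no chemokine gene passed the test in either direction. At an adjusted p under 0.05 (limma, Benjamini-Hochberg over 28306 probes) 0 member probes were called higher and 2 lower, where 1.04% of all tested probes were called in either direction, 0.466% higher and 0.569% lower. At an unadjusted p under 0.05 there were 4 member probes higher and 6 lower, against 11.1% of all probes higher and 11.4% lower. The genotypes did not overlap for 12 of the 37 member probes (32.43%), 6 in each direction, against 30.4% of all tested probes. Apart from the 2 calls, these shares lie near the background.

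Ccr7, the receptor that brings T cells and mature dendritic cells to lymphoid tissue, had scaled signals of 226, 212 and 288 in KO testes and 518, 488 and 520 in WT testes. Every KO testis was below every WT testis, and KO replicate 3 was the highest of its group. Ccr7 was 2.12-fold lower (log2 difference -1.08, SE 0.12, adjusted p = 0.035), the 11th largest difference of the 293 called probes. Within slide 1 it was -1.20 and within slide 2 -0.85, and a slide block gave an adjusted p of 0.044. Leaving out 1 array gave log2 differences from -1.22 to -0.996 with adjusted p from 0.032 to 0.145, and the call was lost without KO replicate 1 (0.116), KO replicate 2 (0.145), WT replicate 1 (0.124) or WT replicate 3 (0.051), and with no filter on dim probes (0.127).

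The ligands of Ccr7 are Ccl19 and Ccl21a, which guide cells within lymphoid tissue. Both Ccl19 probes were within their spread, with log2 differences of 0.06 (SE 0.07, adjusted p = 0.636) and 0.05 (SE 0.08, adjusted p = 0.737). Ccl21a, singled out after its values were seen, had 2510, 345 and 461 in KO testes and 1156, 2124 and 1426 in WT testes. KO replicate 1 was the highest of all 6 testes and the other KO testes were the lowest, so the genotypes overlapped (log2 difference -1.04, SE 0.75, adjusted p = 0.464). Its spread within genotypes, an SD of 1.14 on the log2 scale, was larger than that of 99.92% of tested probes. Its probe also matches the near-identical copies Gm10591, Gm13304 and Gm1987, so its signal cannot be assigned to 1 gene.

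Ccr4, the receptor of Ccl17 and Ccl22 on helper and regulatory T cells, had 736, 751 and 777 with probe A_51_P444476 in KO testes, against 1102, 1021 and 1184 in WT testes. With probe A_51_P444473 it had 1514, 1492 and 1464 in KO testes, against 2181, 1865 and 2215 in WT testes. On both probes the KO testes lay close together and below every WT testis. The first probe was 1.46-fold lower (log2 difference -0.54, SE 0.06, adjusted p = 0.039), and the second differed by -0.48 on the log2 scale (SE 0.07, adjusted p = 0.051). The first probe differed by -0.51 within slide 1 and -0.61 within slide 2, and a slide block ended its call (adjusted p = 0.058). It also lost it without KO replicate 1 (0.125), KO replicate 2 (0.162), KO replicate 3 (0.150) or WT replicate 1 (0.126), on slide 1 alone (0.134) and with no filter on dim probes (0.135), with log2 differences from -0.60 to -0.49 when 1 array was left out.

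Of the Ccr4 ligands, Ccl22 was well above background on no array. Ccl17, made by dendritic cells and known to attract Ccr4-bearing T cells, had 529, 531 and 552 in KO testes and 975, 1049 and 580 in WT testes. The groups did not overlap, but WT replicate 3 lay next to the KO testes. The log2 difference was -0.65 (SE 0.22, adjusted p = 0.166), at -0.93 on slide 1 and -0.07 on slide 2. Without WT replicate 3 it was -0.91 with an adjusted p of 0.012.

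**Figure D2:**
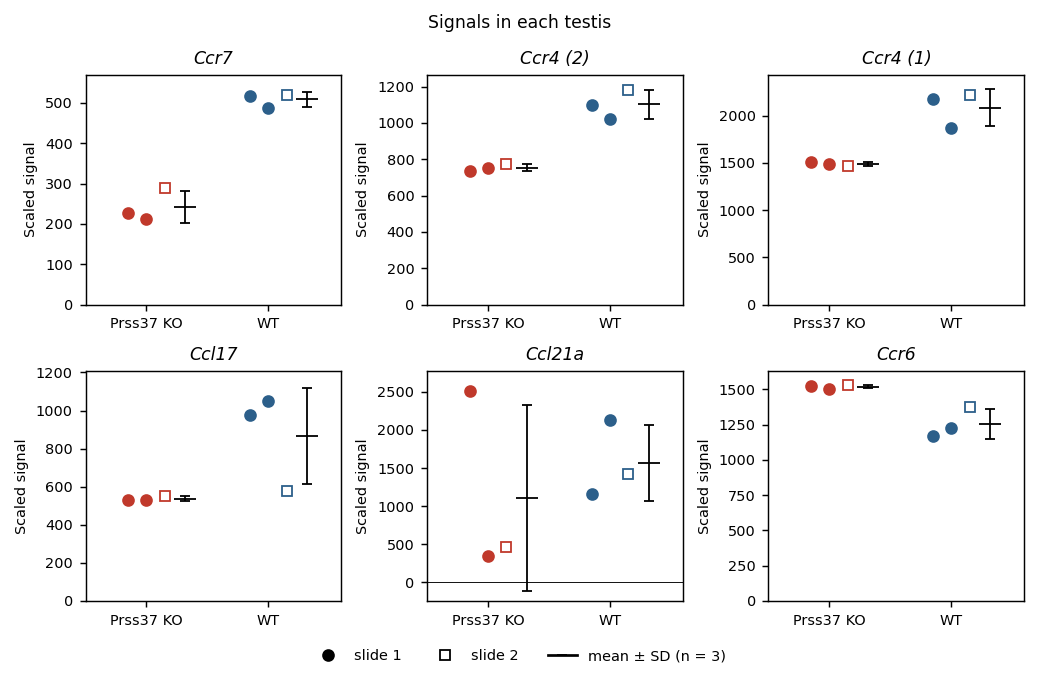
Scaled signal in each testis (filled circles slide 1, open squares slide 2, bars mean ± SD of 3) for Ccr7, both Ccr4 probes (2 is A_51_P444476 and 1 is A_51_P444473), Ccl17, Ccl21a and Ccr6, knockout left of wild type. Ccr7 and Ccr4 are lower in all 3 knockout testes, WT replicate 3 of Ccl17 (580) lies near the knockout points, and Ccl21a has 1 knockout testis at 2510 with the other knockout testes at 345 and 461.

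Markers of T cells and natural killer cells mostly had values below 0, with some above. At an unadjusted p under 0.05 there were 4 lower and 1 higher, against 11.4% of all probes lower and 11.1% higher. The list had 14 probes tested, 4 of them above 0, with a median log2 difference of -0.16. Its summed scaled signal was 17096 to 17305 in KO testes and 18020 to 18892 in WT testes. Such a sum, here and for the other lists, is weighted to the bright probes and does not describe each probe. The probe for the T cell coreceptor Cd8b1 was called lower (log2 difference -0.42, SE 0.05, adjusted p = 0.038). Cd8a and the natural killer cell receptor Ncr1 were well above background on no array. Cd3d, a chain of the T cell receptor complex, had 3663, 3871 and 3636 in KO testes and 3095, 3416 and 3412 in WT testes (log2 difference 0.17, SE 0.06, adjusted p = 0.158), higher in every KO testis. The Cd3e probe that was tested, of the same complex, had 141, 76.5 and 89.2 in KO testes and 116, 149 and 115 in WT testes (log2 difference -0.35, SE 0.24, adjusted p = 0.445). Of the dendritic cell markers other than Ccr7 and Xcr1, 13 probes were tested with 9 above 0 and a median of 0.16. None was called or had an unadjusted p under 0.05. The sums of these markers overlapped at 6030 to 9161 in KO testes and 6564 to 7369 in WT testes. Zbtb46 and Flt3, a transcription factor and a growth factor receptor of dendritic cells, had log2 differences of -0.17 (SE 0.09, adjusted p = 0.333) and -0.22 (SE 0.13, adjusted p = 0.378) on their probes of smallest p. Cd209a, Clec9a and Siglech of that list were well above background on no array. The part of these cell markers in the Ccr7 and Ccr4 results was not tested, and in whole testis RNA fewer cells of a type and less RNA per cell cannot be told apart.

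A promoter sequence was in the RefSeq table (GRCm38.p6) for Ccr4 but was not found there for Ccr7, so the Ccr4 promoter is shown as that of the called member that has one. The window is the 250 bases before the start, chr9:114496545-114496794 of GRCm38.p6, minus strand, written 5′ to 3′ on the gene's strand, and the capitals mark a match to the AP-1 motif that begins 143 bases before the start.

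Ccr4 promoter: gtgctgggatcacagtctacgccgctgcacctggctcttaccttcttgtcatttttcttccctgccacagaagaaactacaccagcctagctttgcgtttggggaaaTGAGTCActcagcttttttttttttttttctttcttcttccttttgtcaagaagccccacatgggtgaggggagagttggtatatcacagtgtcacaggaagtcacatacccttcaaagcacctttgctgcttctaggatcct

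The AP-1 motif was searched as TGANTCA on both strands of windows from 250 bases before to 50 bases after the start, and occurred in 8 of 44 promoters of 40 member genes (18.2%) and in 7.81% of all 32851 promoters. The other motifs searched were GGGNNNNNCC of NF-kappa B (56.8% of member promoters and 50.8% of all), TTCNNNGAA of the STAT factors (9.09% and 8.30%) and GAAANNGAAA of the interferon-response element (6.82% and 3.44%). In this window Ccr4 held a match to AP-1 alone. A match is a description of the letters and not a binding site.

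Among the receptors that did not pass the test, Ccr6, which binds Ccl20 and is known on B cells and some T cells, had 1525, 1504 and 1529 in KO testes and 1167, 1227 and 1371 in WT testes. All KO testes were higher (log2 difference 0.28, SE 0.07, adjusted p = 0.088), and it passed without WT replicate 3 (0.048). B cell markers had 6 probes tested with 5 above 0 and a median of 0.43. At an unadjusted p under 0.05, 3 were higher and 0 lower, against 11.1% of all tested probes higher and 11.4% lower. Ms4a1, which encodes the B cell antigen CD20, was called higher on 1 of its probes (log2 difference 0.59, SE 0.07, adjusted p = 0.039). The list sums were 511 to 686 in KO testes and 462 to 522 in WT testes. Blk and Cd22 of that list were well above background on no array. The part of B cells in the Ccr6 values was not tested.

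Ackr3, a receptor that takes up Cxcl12 without G protein signalling, had 502, 420 and 398 in KO testes and 589, 545 and 531 in WT testes. The KO testes were all lower (log2 difference -0.34, SE 0.10, adjusted p = 0.121), at -0.30 on slide 1 and -0.41 on slide 2. Cxcl12 itself had 1477, 1643 and 1520 in KO testes and 1321, 1248 and 1407 in WT testes with probe A_51_P172502. Its KO testes were all higher (log2 difference 0.22, SE 0.07, adjusted p = 0.128).

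Probe A_52_P685021 for Cxcl12 had 178, 210 and 174 in KO testes and 169, 129 and 166 in WT testes (log2 difference 0.28, SE 0.13, adjusted p = 0.261), with the KO testes again higher. The other receptor of Cxcl12 is Cxcr4, and both of its probes were dim in KO testes. Cxcr4 probe A_52_P565353 had 28.0, 26.5 and 29.9 in KO testes, none well above background, and 25.6, 115 and 35.4 in WT testes, of which 2 were. With KO values raised to the lowest signal that counts as well above background, the WT mean on the log2 scale was 1.46-fold higher. That ratio takes the dim value of WT replicate 1 as read and rests mostly on WT replicate 2. It is therefore not a lower limit of the difference. Probe A_52_P585124 had 31.0, 30.7 and 30.1 in KO testes and 35.7, 53.0 and 31.3 in WT testes, of which only WT replicate 2 was well above background. Its ratio, formed in the same way with dim WT values taken as read, was 1.18. Neither Cxcr4 probe was tested, and their genotypes overlapped on the first and not on the second.

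Cxcr5, which brings B cells to follicles, had 342, 370 and 373 in KO testes and 330, 338 and 338 in WT testes (log2 difference 0.11, SE 0.05, adjusted p = 0.264), with no overlap. Its ligand Cxcl13 had 6.45, 32.7 and 27.6 in KO testes, none well above background, and 7.74, 37.8 and 70.8 in WT testes, of which 2 were, with overlap and no fold past 1 against the background limit. Cxcr6, found on memory T cells and natural killer T cells, had 71.2, 55.0 and 58.6 in KO testes and 70.8, 67.5 and 69.3 in WT testes. KO replicate 1 reached the WT testes and the other KO testes lay lower (log2 difference -0.18, SE 0.10, adjusted p = 0.352).

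The remaining receptors tested were Ccr9, Cxcr3 and Xcr1, with log2 differences of -0.18, 0.05 and -0.07 and overlapping genotypes. Ccr2, the monocyte receptor of Ccl2, was detected on 2 KO and 2 WT arrays with 1 of its probes, and was not tested. The 10 receptor probes tested had a median log2 difference of -0.18 with 3 above 0, and the 27 chemokine probes a median of 0.14 with 20 above 0. All 37 had a median of 0.08 with 23 above 0 (62.16%), beside a median of -0.002 and 49.3% above 0 over all tested probes. That the receptors as a group differ from the chemokines was not tested.

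**Figure D3:**
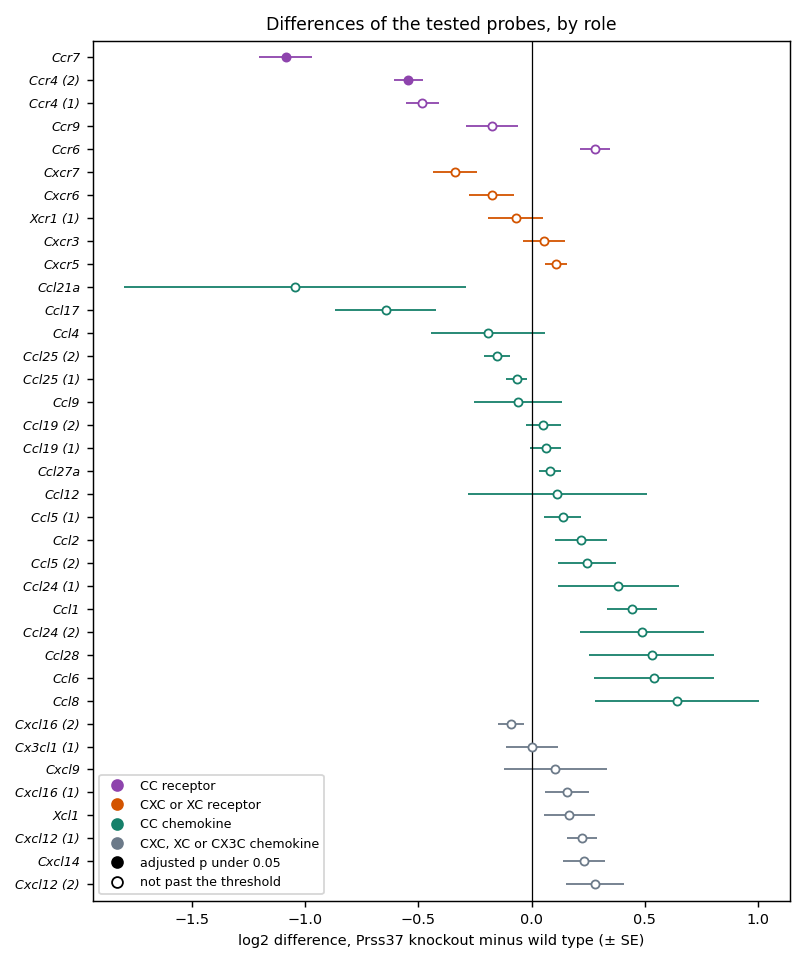
Log2 difference of the 37 tested probes, knockout minus wild type, with SE bars, by role; filled points have an adjusted p under 0.05. Ccr7 (-1.08) and probe 2 of Ccr4 (-0.54) are filled, 20 of the 27 chemokine probes lie above 0, and Ccl21a has the widest bar (SE 0.75).

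Among the chemokines 20 of 27 tested probes were above 0, against 49.3% of all tested probes, and none passed the test. Of the 27, 14 had the same sign on both slides, a share that was not computed over all tested probes. Ccl1, the ligand of Ccr8 made by activated T cells, had 160, 172 and 171 in KO testes and 104, 134 and 135 in WT testes. All KO testes were higher (log2 difference 0.44, SE 0.11, adjusted p = 0.094). Cxcl14, a chemokine of epithelia and macrophages, had 266, 261 and 240 in KO testes and 194, 219 and 243 in WT testes, with WT replicate 3 within the KO values (log2 difference 0.23, SE 0.09, adjusted p = 0.208).

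The inflammatory chemokines that attract monocytes and eosinophils had 9 probes tested, 7 of them above 0, a median log2 difference of 0.22, and no unadjusted p under 0.05. Ccl8 had 983, 575 and 538 in KO testes and 278, 640 and 452 in WT testes, overlapping at WT replicate 2 (log2 difference 0.64, SE 0.36, adjusted p = 0.353). Ccl2, the main monocyte attractant, was read by 10 spots per array and had 67.3, 52.5 and 65.8 in KO testes and 48.6, 52.8 and 57.6 in WT testes. KO replicate 2 lay within the WT values (log2 difference 0.22, SE 0.12, adjusted p = 0.324).

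Ccl5, which attracts T cells and monocytes, had 291, 303 and 275 in KO testes and 240, 261 and 291 in WT testes with probe A_51_P485312. With probe A_52_P638459 it had 874, 982 and 848 in KO testes and 635, 784 and 878 in WT testes. On both probes WT replicate 3 lay within the KO values, and the log2 differences were 0.14 (SE 0.08, adjusted p = 0.372) and 0.25 (SE 0.13, adjusted p = 0.318). Ccl24, the eosinophil attractant that binds Ccr3, had 146, 154 and 86.2 in KO testes and 91.1, 78.3 and 123 in WT testes with probe A_51_P322640. With probe A_52_P18116 it had 243, 251 and 159 in KO testes and 133, 122 and 217 in WT testes. The direction of Ccl24 turned between slides on both probes, with log2 differences of 0.83 and 0.96 on slide 1 and -0.51 and -0.45 on slide 2.

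Ccl6, a macrophage chemokine of mice, had 141, 134 and 183 in KO testes and 133, 69.6 and 122 in WT testes. The KO testes were higher by a narrow margin (log2 difference 0.54, SE 0.27, adjusted p = 0.292). The remaining inflammatory CC chemokines tested, Ccl4, Ccl9 and Ccl12, had log2 differences of -0.19, -0.06 and 0.11 with overlapping genotypes. Of Ccl7, a ligand of Ccr2, probe A_51_P436652 had 34.9, 25.3 and 37.5 in KO testes and 14.2, 30.7 and 21.9 in WT testes. It was well above background on 1 KO array and no WT array, and KO replicate 2 lay below WT replicate 2. Probe A_52_P208763 for Ccl7 had 37.1, 16.0 and 18.1 in KO testes and 7.90, 13.6 and 19.7 in WT testes, with KO replicate 1 alone well above background.

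Macrophage and monocyte markers had 13 of 17 tested probes above 0, a median log2 difference of 0.13 and none called. At an unadjusted p under 0.05, 5 of these probes were higher and 1 lower, against 11.1% of all tested probes higher and 11.4% lower. The summed scaled signal of these markers was 26108 to 31639 in KO testes and 21264 to 26243 in WT testes, with a narrow overlap. Much of that sum came from Lyz2 probe A_52_P238027, of the lysozyme of macrophages, which had 13490, 15876 and 17880 in KO testes and 14479, 10126 and 13814 in WT testes (log2 difference 0.31, SE 0.17, adjusted p = 0.335). Each gene of the list was well above background on some array. The macrophage scavenger receptor Cd163 differed by 0.36 on the log2 scale (SE 0.08, adjusted p = 0.079). Cx3cr1 of the same list had the opposite sign, at -0.46 on probe A_52_P99810 (SE 0.41, adjusted p = 0.559). Its genotypes overlapped there, and the difference was -1.13 on slide 1 and 0.89 on slide 2. The lower Cx3cr1 probe A_51_P350853 was well above background in WT testes alone and was tested through them alone. The part of macrophages in the chemokine values was not tested.

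The lymphoid and mucosal chemokines Ccl25 and Ccl28 had differences of opposite sign, and neither passed the test. Ccl25, which attracts thymocytes and gut T cells through Ccr9, had 282, 270 and 281 in KO testes and 308, 329 and 291 in WT testes with probe A_52_P326713. The KO testes were all lower (log2 difference -0.15, SE 0.06, adjusted p = 0.193). With probe A_51_P161265 it had 3075, 3113 and 2969 in KO testes and 3240, 3291 and 3056 in WT testes, overlapping at WT replicate 3 (log2 difference -0.07, SE 0.05, adjusted p = 0.464). Ccl28, a mucosal chemokine that binds Ccr10, had 1589, 2111 and 1654 in KO testes and 1386, 1651 and 805 in WT testes, overlapping at WT replicate 2 (log2 difference 0.53, SE 0.28, adjusted p = 0.316).

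Ccl27a, which guides T cells to skin through Ccr10, differed by 0.08 on the log2 scale (SE 0.05, adjusted p = 0.394), with a probe that also matches its copies Ccl27b, Gm13306 and Gm2506. Cxcl16, the ligand of Cxcr6, had log2 differences of 0.16 and -0.09 on its probes, and Xcl1, the ligand of Xcr1, 0.17. Cx3cl1, a chemokine tethered to the cell membrane, differed by 0.004 on the log2 scale (SE 0.12) on 1 probe and was well above background on no array with the other. Cxcl9 differed by 0.10 on the log2 scale (SE 0.23). Of the neutrophil attractants, Cxcl3 had 5.81, 11.3 and 54.3 in KO testes and 11.1, 6.42 and 5.93 in WT testes, with KO replicate 3 alone well above background. Cxcl15 probe A_51_P384187 had 6.21, 36.4 and 19.2 in KO testes and 24.6, 24.0 and 6.35 in WT testes, with KO replicate 2 alone well above background. Both overlapped between genotypes, and the other Cxcl15 probe, A_52_P820196, was well above background on no array, with 6.36, 7.04 and 8.00 in KO testes and 7.63, 7.31 and 6.55 in WT testes.

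Many chemokine genes lie in clusters on the mouse genome, and Ccr7 and Ccr4 lie outside those described here. The CC ligand cluster on chromosome 11 (81850650 to 83478111 of mm9) held 11 member genes, of which 8 had a tested probe, 6 with log2 differences above 0. The receptor cluster on chromosome 9 (123690334 to 124041306) held 8, of which Ccr9, Cxcr6 and Xcr1 were tested, none above 0. The CXC ligand cluster on chromosome 5 (91190205 to 96389920) held 9 genes, of which Cxcl9 alone was tested. On chromosome 8 the neighbours Ccl17 and Cx3cl1 had log2 differences of -0.65 and 0.004, and on chromosome 4 Ccl21a had -1.04 beside values from 0.05 to 0.08 for Ccl19 and Ccl27a. None of these clusters held a called probe.

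The member probes varied more between mice of 1 genotype than most probes did. The median SD within genotypes was 0.16 on the log2 scale for the 37 member probes and 0.08 for all tested probes. After Ccl21a the widest were Ccl12 (SD 0.59), Ccl8 (0.54), Ccl28 (0.41) and the Ccl24 probes (0.41 and 0.40), whereas Ccr4 probe A_51_P444476 had 0.08 and Ccr7 0.17. Differences within the slides had the same sign on both for 22 of the 37 probes, namely 8 of 10 receptor probes and 14 of 27 chemokine probes. The median of the member differences was 0.05 on slide 1 and -0.04 on slide 2.

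**Figure D4:**
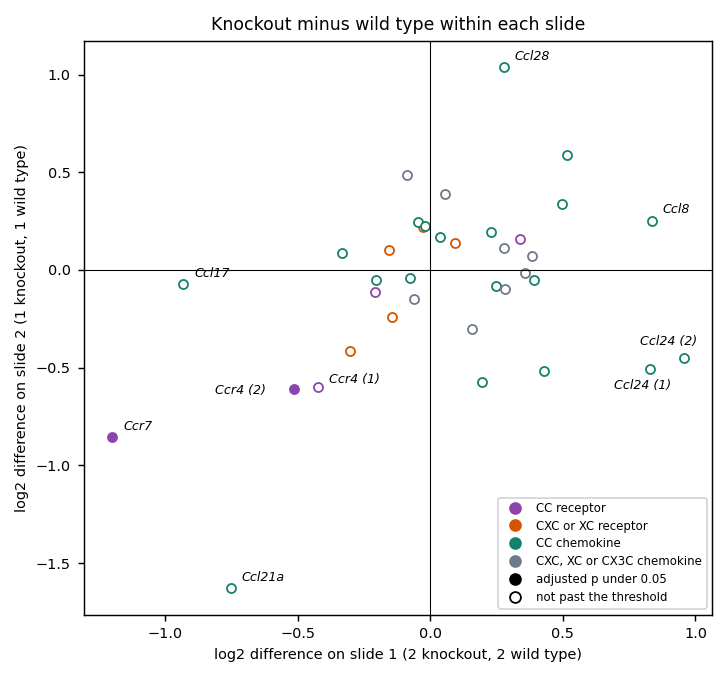
Log2 difference, knockout minus wild type, within slide 1 (x axis, 2 against 2 mice) and slide 2 (y axis, 1 against 1) for each of the 37 tested probes, coloured by role. Ccr7 (-1.20 and -0.85) and both Ccr4 probes lie below 0 on both slides, whereas Ccl17 (-0.93 and -0.07) and the Ccl24 probes differ between slides.

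Other genes of the chemokine system held no probe past the test. Of the atypical and related receptors and ligands outside the name rule, 11 probes of 7 genes were tested, 3 above 0, with a median log2 difference of -0.30. Cx3cr1, the receptor of Cx3cl1 on monocytes and macrophages, had 26.3, 19.5 and 26.1 in KO testes with probe A_51_P350853, none well above background, and 110, 53.3 and 45.7 in WT testes. With KO values raised to the background limit it was at least 1.999-fold lower. It was tested through the WT testes alone, where its signal was high (limma adjusted p = 0.085). The other Cx3cr1 probe differed by -0.46 on the log2 scale (SE 0.41, adjusted p = 0.559), with overlapping genotypes. Ccrl2, an atypical receptor that holds chemerin at the cell surface, differed by -0.30 on the log2 scale (SE 0.08, adjusted p = 0.112) on its probe of smaller p. That Ccrl2 probe was well above background on 1 KO and 3 WT arrays, so it was tested through the WT testes alone. The other Ccrl2 probe differed by -0.37 (SE 0.18, adjusted p = 0.303), with overlapping genotypes.

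The genes that carry the signal of chemokine receptors, such as G proteins, arrestins, kinases and Rac regulators, had 76 probes of 38 genes tested, with 48 above 0 and a median log2 difference of 0.03. None was called, and 10 higher and 5 lower had an unadjusted p under 0.05. Prex1, a Rac activator in neutrophils, differed by 0.38 on the log2 scale (SE 0.06, adjusted p = 0.051), and Jak3, a kinase of cytokine receptors in lymphocytes, 0.55 (SE 0.12, adjusted p = 0.073) on its probe of smallest p. That Jak3 probe was very bright, at 64564 to 116376, while Jak3 probe A_52_P512847 had 333 to 491. Probe A_52_P512847 differed by 0.17 (SE 0.15, adjusted p = 0.558), and the bright Jak3 probe A_51_P288406 by 0.30 (SE 0.10, adjusted p = 0.163). Whether the bright probes read Jak3 alone was not tested. The genes that induce chemokines had 19 probes of 15 genes tested with a median of -0.05 and none called, 2 being higher at an unadjusted p under 0.05. In that list Tnf, Ifng, Ifnb1, Il6, Il17a, Lta, Tlr3 and Tlr4 were well above background on no array. Ltb, a lymphotoxin chain that drives lymphoid chemokines, differed by 0.26 on the log2 scale (SE 0.06, adjusted p = 0.078), and Nfkb1, a subunit of NF-kappa B, 0.28 (SE 0.07, adjusted p = 0.099) on its probe of smallest p.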

How the data were processed

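RNA of 6 testes was measured on 6 single-colour arrays. Per the file headers, the deposited intensity values came from Agilent Feature Extraction 10.7.3.1, which had already subtracted background from the processed signal. The submitters' processing notes give version 10.7. The other deposited columns used were its flags for spots that are outliers or well above background, per the file headers. The log2 table the authors deposited had a median of 7.72 in every array, with its steps not given in the sources used here, and served as an alternative. Probe positions are mm9, per the file headers.

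Log2 processed signals were centred on each array's 75th percentile (1550 to 1707 before scaling), without the 86 to 159 outlier spots per array, and spots of 1 probe were averaged. A probe was tested where at least 50% of its spots were well above background on every array of 1 genotype. KO was compared with WT in limma 3.58.1 (R 4.3.3), with 3 arrays per genotype and no covariate, per probe, with Benjamini-Hochberg adjustment, and the fit was checked on simulated data. The number of arrays limits the precision. Members and gene lists were chosen with earlier results of these data known. Values are given in every array for called member probes, the 20 of smallest p, probes dim in 1 genotype and the other probes of those genes; from the other lists described, called genes or the 2 of smallest p are named, beside Cd3d, Cd3e and Lyz2, which were added after their values were seen. Symbols were matched to RefSeq for 67 of 69 member probes. The values of 1 member are not reported here. Deviations of same-numbered arrays correlated at -0.05, -0.03 and 0.14, so replicate numbers were not taken as pairs. KO replicate 1 correlated with WT replicate 2 at 0.125, and KO replicate 2 with WT replicate 1 at 0.119. The remaining combinations across numbers were negative. Whether the mice were paired in another way was not tested. Alternatives were normexp (offset 50), quantile normalization, median centring, the deposited table, other filters and probe rules, other variance models, array weights, blocks and each array left out.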

Additional observations from a re-analysis of the deposited data

How the results depend on the processing

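No named log2 difference changed direction in 435 comparisons (22 tested probes, 20 alternatives), and 408 kept their side of the threshold, 13 gained and 14 lost it. The counts of 132 probes higher and 161 lower, with 0 and 2 chemokine or receptor probes, became as follows. They were 250 and 173 with normexp (members 0 and 2), 258 higher with quantile normalization, 248 higher with the deposited table and 227 higher with the brightest probe per gene. With no filter on dim probes, which tests 41174 probes, they were 0 and 5, with 0 member probes lower and adjusted p of 0.127 for Ccr7 and 0.135 for Ccr4. With probes well above background on all 6 arrays they were 282 and 284. Robust fitting with a variance trend gave 844 and 685, with 1 member higher (Ccr6, adjusted p = 0.046) and 3 lower, and with array weights 821 and 676, with 2 higher (Ccr6, 0.041, and Ccl1, 0.046) and 3 lower. With the slide as a block they were 11 and 20, with 1 member lower, and on slide 1 alone, with fewer arrays, 3 and 16, with 1 lower. At an adjusted p under 0.1 they were 1146 and 1119, with 2 members higher and 3 lower. The second Ccr4 probe passed with quantile normalization (0.048), the deposited table (0.048), the stricter filter (0.045) and the brightest probe per gene (0.044). It also passed with robust fitting and a variance trend (0.017), with array weights (0.030) and without WT replicate 2 (0.033). The cause of these shifts was not tested where fewer arrays or other probe numbers do not account for it by construction. Without 1 array the counts ran from 0 to 441 higher and 2 to 331 lower (0 and 2 without KO replicate 2, 441 and 331 without WT replicate 2), with 0 to 1 member higher and 0 to 3 lower, and the member median ran from 0.06 to 0.11. With the replicate number as a block, which the data do not bear out as pairs, 0 probes were higher and 3 lower, 0 of them members, with adjusted p of 0.155 for both Ccr7 and Ccr4. The smallest detectable difference was not estimated, and signals not well above background limit the 32 member probes left untested.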
